A study of Mus musculus with 6 samples.

Results

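The TGF-β signalling core was examined in bulk RNA-seq of whole mouse testes as 10 genes chosen by name: the ligands *Tgfb1*, *Tgfb2* and *Tgfb3*, the receptors *Tgfbr1*, *Tgfbr2* and *Tgfbr3*, and the SMADs *Smad2*, *Smad3*, *Smad4* and *Smad7*. All 10 were found among the 54232 genes of the deposited count table. The study compared testes of *Stra8-Cre*; *Dis3l2* F/- mice with those of littermate controls, all at postnatal day 12 on a background labelled B6D2F1 inbred. The design limits the comparison, since *Stra8-Cre* acts in spermatogonia and preleptotene spermatocytes, the F/- animals also carry a null allele in every other cell, and RNA came from the whole organ. The labels give 3 libraries as *Dis3l2* WT (the control libraries) and 3 as *Dis3l2* KO (the KO-labelled libraries), and the study calls the 3 of a group biological replicates. The labels do not say whether each came from a separate animal or a pool, so p-values measure the spread between these libraries.

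TGF-β ligands are secreted in a latent form and, once released, bring together a type II receptor (TGFBR2) and a type I receptor kinase (TGFBR1, also called ALK5), while betaglycan (TGFBR3) presents ligand and binds inhibin. The activated type I receptor phosphorylates SMAD2 and SMAD3, which enter the nucleus with the shared partner SMAD4, and SMAD7 is an inhibitor that the signal itself induces. In the testis, Sertoli, peritubular, Leydig and germ cells are all known to carry parts of this pathway.

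The gene named in the labels was not lower in the KO-labelled libraries under the main scaling. *Dis3l2* stood at 25.8, 23.5 and 23.0 CPM (counts scaled by the size of the library) in the control against 31.6, 25.4 and 27.5 CPM in the KO-labelled libraries. It was not called (log2 fold change 0.22, adjusted p = 0.136 from edgeR). Its sign turned when the libraries were scaled to somatic markers (-0.15, adjusted p = 0.391) or to Sertoli markers (-0.46, adjusted p = 0.00291). The median of all genes was -0.39 and -0.71 under these scalings, which called 37.5% and 64.9% of all genes lower. *Dis3*, which encodes the related exosome nuclease, is the gene that the series' design sentence names. It stood at 133, 148 and 137 CPM in the control against 59.1, 64.3 and 68.1 CPM in the KO-labelled libraries. The level of *Dis3* fell by 1.13 on the log2 scale (adjusted p = 2.71e-07 from edgeR). This call held under all 16 alternative settings, of which the marker scalings lower all genes together. Of all genes tested 16.5% were called lower and 16.2% higher. The median log2 fold change was -2.02 for spermatocyte markers, -1.40 for differentiating and 0.46 for undifferentiated spermatogonia markers. The part of cell composition in the fall of *Dis3* was not tested. The study's other assays of *Dis3l2* RNA and protein in these mice were not analysed here. Counts over the whole gene would include any transcripts that lack only the deleted part, as well as those of cells without Cre. The part of either in the *Dis3l2* values was not tested, nor was which gene was deleted. Every direction below is therefore that of the KO-labelled libraries against the control libraries.

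Libraries held 33325483 to 44956193 counts, with 31560 to 34399 genes detected in the control and 27705 to 28414 in the KO-labelled libraries. Markers of the cells of the testis were listed with earlier results of these data known, and many moved with the groups under TMM scaling. Of all genes tested, 16.2% rose and 16.5% fell (edgeR, adjusted p under 0.05), which is the background of the marker counts that follow. All 12 Sertoli cell markers rose, and their summed level was 7837 to 8418 CPM in the control against 12657 to 13365 CPM in the KO-labelled libraries, while all 8 spermatocyte markers fell, from 994 to 1210 CPM down to 246 to 330 CPM. Among the 8 markers of each other type, 6 of Leydig cells, 6 of macrophages, 4 of stromal cells, 4 of undifferentiated spermatogonia and 2 of endothelial cells rose, and 6 of differentiating spermatogonia and 3 of peritubular myoid cells fell. Their summed levels in the control against the KO-labelled libraries were 541 to 621 against 802 to 844 CPM for Leydig cells, 155 to 181 against 213 to 297 CPM for macrophages, and 1561 to 1577 against 1306 to 1426 CPM for myoid cells. Undifferentiated spermatogonia markers summed to 210.0 to 216 against 251 to 302 CPM, and differentiating ones to 749 to 806 against 325 to 402 CPM. Of 8 erythroid and adipose markers 5 had enough counts to test, and 1 rose, with sums of 22.5 to 29.9 against 31.8 to 33.7 CPM. No marker was at 0 in all 6 libraries. In RNA of a whole organ, a change in the share of a cell type and a change in RNA per cell cannot be told apart, and the part of cell composition in the results was not tested other than by rescaling.

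The promoters of 5 of the 10 genes, those with a window used here, are shown first, and they were not picked by direction. Of these genes, *Tgfb1* and *Smad3* rose, *Tgfbr1* fell, and *Tgfb2* and *Tgfbr2* were not called. The other called genes, *Tgfb3*, *Tgfbr3*, *Smad2* and *Smad7*, are not among them. Each sequence is the 250 bases before the RefSeq start on the gene's own strand in GRCm38.p6, written 5′ to 3′. Capitals mark the GC box (GGGCGG or its reverse complement CCGCCC, a motif bound by SP1) and the SMAD core motif (CAGAC or GTCTG).
Tgfb1, chr7:25686752-25687001, plus strand: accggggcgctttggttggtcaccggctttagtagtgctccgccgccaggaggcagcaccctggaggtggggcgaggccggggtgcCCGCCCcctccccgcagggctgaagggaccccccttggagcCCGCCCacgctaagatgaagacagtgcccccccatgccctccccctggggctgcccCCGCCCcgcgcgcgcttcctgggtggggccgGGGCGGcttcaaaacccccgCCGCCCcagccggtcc
Smad3, chr9:63757995-63758244, minus strand: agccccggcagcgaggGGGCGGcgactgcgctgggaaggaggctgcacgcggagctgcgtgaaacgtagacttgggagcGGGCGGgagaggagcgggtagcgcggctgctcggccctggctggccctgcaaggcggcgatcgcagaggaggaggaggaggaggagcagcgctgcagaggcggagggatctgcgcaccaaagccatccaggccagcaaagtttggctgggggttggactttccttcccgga
Tgfbr1, chr4:47352972-47353221, plus strand: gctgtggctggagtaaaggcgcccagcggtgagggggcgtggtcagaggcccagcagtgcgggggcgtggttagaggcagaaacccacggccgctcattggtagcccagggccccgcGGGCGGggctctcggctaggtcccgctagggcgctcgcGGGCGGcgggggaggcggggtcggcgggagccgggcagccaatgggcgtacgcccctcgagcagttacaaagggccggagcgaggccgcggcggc
Tgfb2, chr1:186705990-186706239, minus strand: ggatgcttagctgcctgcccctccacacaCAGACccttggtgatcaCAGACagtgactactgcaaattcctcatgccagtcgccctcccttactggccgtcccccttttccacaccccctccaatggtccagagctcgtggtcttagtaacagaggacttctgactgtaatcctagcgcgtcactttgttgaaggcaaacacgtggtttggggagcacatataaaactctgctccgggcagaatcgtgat
Tgfbr2, chr9:116175364-116175613, minus strand: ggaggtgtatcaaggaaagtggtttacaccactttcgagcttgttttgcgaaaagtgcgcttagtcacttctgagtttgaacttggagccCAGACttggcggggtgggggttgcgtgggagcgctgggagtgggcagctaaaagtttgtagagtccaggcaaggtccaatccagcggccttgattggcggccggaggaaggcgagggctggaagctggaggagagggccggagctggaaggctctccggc

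The GC box occurred 5 times in the *Tgfb1* window and 2 times each in those of *Tgfbr1* and *Smad3*, and was not found in the windows of *Tgfb2* and *Tgfbr2*. The SMAD core showed the opposite arrangement, with 2 copies in *Tgfb2*, 1 in *Tgfbr2* and 0 in the other windows shown. Of 32841 promoter windows of the same length, 32.7% held a GC box and 42.2% a SMAD core, so neither is rare. The palindrome GTCTAGAC, bound by SMADs and present in 0.167% of all windows, was in none of these, and TATAAA on either strand, present in 12.4%, was in that of *Tgfb2* only, among the windows shown. GC content was 75.2% in *Tgfb1*, 74.8% in *Tgfbr1* and 69.2% in *Smad3*, against 53.6% in *Tgfb2* and 58.4% in *Tgfbr2*. A second *Tgfbr1* window, upstream of a start 32994 bases further into the gene, held 1 SMAD core and no GC box. The 2 sets of windows were not compared by a test, and a match is a match of letters only.

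All 10 genes passed the filter on low counts. By edgeR with TMM scaling and at an adjusted p under 0.05, 5 rose (*Tgfb1*, *Tgfb3*, *Tgfbr3*, *Smad3* and *Smad7*), 2 fell (*Tgfbr1* and *Smad2*) and 3 were not called (*Tgfb2*, *Tgfbr2* and *Smad4*). The rises did not all hold when the libraries were scaled to somatic or Sertoli markers. Those scalings lower all genes together, so the falls, which held, were not put to a test by them. Of all 20327 genes tested, 32.7% were called, 16.2% as higher and 16.5% as lower. DESeq2 also called 5 of the 10 higher and 2 lower, with 34.3% of all genes called. For 7 of the 10 genes no control library reached into the range of the KO-labelled libraries, against 45.5% of all genes tested. The median log2 fold change was 0.24 over the 10 genes and -0.02 over all genes, and the median size without sign was 0.43 against 0.34. With this much of the transcriptome called, the changes were of ordinary size: among the rises, 16.9% were larger than that of *Smad7*, 42.7% than that of *Tgfb1*, 53.7% than that of *Tgfbr3* and 89.2% than that of *Tgfb3*, and 1317 of the 3294 exceeded that of *Smad3*. Among the falls, 48.3% were larger than that of *Tgfbr1* and 83.5% than that of *Smad2*.

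**Figure D1:**
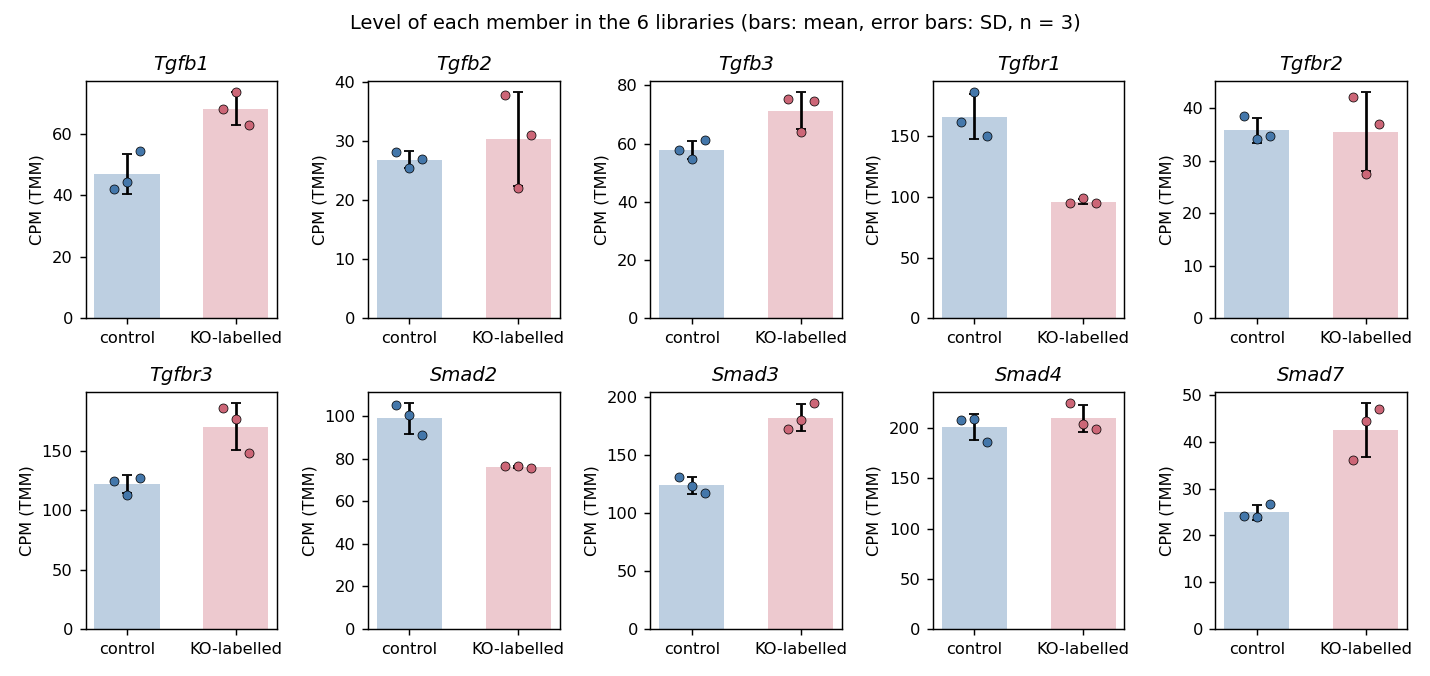
Level of each of the 10 genes in CPM (y axes, each from 0) in the 3 control and 3 KO-labelled libraries (points), with bars for group means and error bars for the SD. The groups do not overlap for *Tgfb1*, *Tgfb3*, *Tgfbr1*, *Tgfbr3*, *Smad2*, *Smad3* and *Smad7*, and they overlap for *Tgfb2*, *Tgfbr2* and *Smad4*.

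*Tgfb1*, the isoform best known for its roles in immunity and fibrosis, lies at chr7:25687002-25705077 on the plus strand (GRCm38). It was at 42.0, 44.3 and 54.4 CPM in the control against 68.2, 73.5 and 62.9 CPM in the KO-labelled libraries. The highest control library was below the lowest KO-labelled library. This gene has the promoter with the most GC boxes of those shown. Its log2 fold change was 0.54 ± 0.11 (SE, n = 3 and 3 libraries), with a 95% interval of 0.32 to 0.77 (adjusted p = 0.00115 from edgeR).

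*Tgfb3*, a ligand known in the testis for regulating Sertoli cell junctions, lies at chr12:86056745-86079041 on the minus strand. It was at 57.7, 54.7 and 61.1 CPM in the control against 75.4, 64.1 and 74.6 CPM in the KO-labelled libraries. The groups were separated by a narrow gap, between the third control and the second KO-labelled library. The log2 fold change of 0.30 ± 0.09 (SE, n = 3 and 3) passed the test (adjusted p = 0.0184 from edgeR), but not without control replicate 1 (adjusted p = 0.0724) or without KO-labelled replicate 1 (0.051), although its size stayed at 0.30 and 0.27.

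*Tgfb2*, the ligand that depends most on betaglycan for binding to its receptors, lies at chr1:186622792-186705989 on the minus strand. It was at 28.2, 25.4 and 26.9 CPM in the control against 37.8, 22.1 and 31.1 CPM in the KO-labelled libraries. The KO-labelled libraries thus spanned the control range on both sides. The log2 fold change was 0.17, with an interval of -0.15 to 0.50 (adjusted p = 0.414 from edgeR), and without KO-labelled replicate 2 it was 0.37 and called (adjusted p = 0.043). KO-labelled replicate 1, the highest library for *Tgfb2*, also had the highest summed level of stromal markers, 5123 CPM. The sums were 3618 and 3598 CPM in KO-labelled replicates 2 and 3, and 3066, 3332 and 2946 CPM in the control. Control replicate 2, with the highest stromal sum of the control, had the lowest control level of *Tgfb2*. The part of stromal cells in the *Tgfb2* values was not tested.

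As shares of the summed ligand level per kb of exon, *Tgfb3* was the largest in every library, at 53.9% to 56.4% in the control and 50.8% to 55.3% in the KO-labelled libraries. This order depends on the exon lengths of the whole gene, 3383 bases for *Tgfb3* and 5042 for *Tgfb1*. In CPM, without division by exon length, *Tgfb1* was above *Tgfb3* in KO-labelled replicate 2, at 73.5 against 64.1 CPM. The share of *Tgfb1* was 27.5%, 29.9% and 32.2% in the control and 32.0%, 39.0% and 31.3% in the KO-labelled libraries, and that of *Tgfb2* 16.1%, 14.97% and 13.9% against 15.4%, 10.2% and 13.5%. The groups overlapped for all 3 shares. The within-library log2 ratios of *Tgfb2* over *Tgfb1*, *Tgfb3* over *Tgfb1* and *Tgfb3* over *Tgfb2* differed by -0.41, -0.25 and 0.16 between groups (two-sided exact permutation p = 0.2, 0.2 and 0.5; adjusted over 8 ratios 0.229, 0.229 and 0.5). Without KO-labelled replicate 2 these differences were -0.14, -0.12 and 0.02, and without KO-labelled replicate 1 the last was 0.29.

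*Tgfbr1*, the type I receptor kinase, had the smallest adjusted p of the 10 genes. It lies at chr4:47353222-47414931 on the plus strand and was at 162, 186 and 151 CPM in the control against 95.4, 98.8 and 94.7 CPM in the KO-labelled libraries. The KO-labelled libraries were close to each other, and all were far below the lowest control library. The level fell by 0.79 ± 0.09 on the log2 scale (SE, n = 3 and 3), a 1.73-fold higher level in the control, with an interval of -0.97 to -0.60 (adjusted p = 1.15e-05 from edgeR).

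*Tgfbr2*, the type II receptor that binds ligand and activates TGFBR1, lies at chr9:116084293-116175360 on the minus strand. It was at 38.5, 34.1 and 34.8 CPM in the control against 42.2, 27.5 and 37.1 CPM in the KO-labelled libraries. As for *Tgfb2*, KO-labelled replicate 1 was the highest and replicate 2 the lowest of all 6 libraries. The log2 fold change was -0.01, with an interval of -0.29 to 0.27 under TMM scaling (adjusted p = 0.967 from edgeR). A change of the size of that of *Tgfbr1* lies outside this interval, and changes within it are not excluded.

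*Tgfbr3*, betaglycan, lies at chr5:107106570-107289629 on the minus strand, and 297 of its 6545 exon bases (4.54%) are shared with the same-strand gene models *Gm43422*, *Gm43423* and *Gm42900*. It was at 125, 113 and 127 CPM in the control against 186, 177 and 148 CPM in the KO-labelled libraries. All KO-labelled libraries were above all control libraries. Betaglycan RNA rose by 0.48 ± 0.09 on the log2 scale (SE, n = 3 and 3), with an interval of 0.29 to 0.68 (adjusted p = 9.97e-04 from edgeR).

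*Tgfbr1* made up 84.1%, 87.2% and 84.4% of the summed *Tgfbr1* and *Tgfbr2* level per kb in the control and 73.9%, 81.8% and 76.2% in the KO-labelled libraries, without overlap. The ratio of *Tgfbr3* over *Tgfbr1* was 0.771, 0.606 and 0.845 in the control and 1.95, 1.79 and 1.56 in the KO-labelled libraries, so that betaglycan RNA went from below to above that of the type I receptor per kb of exon. On the log2 scale the ratios of *Tgfbr1* over *Tgfbr2*, *Tgfbr3* over *Tgfbr1* and *Tgfbr3* over *Tgfbr2* differed by -0.75, 1.26 and 0.51 between groups. Each had a two-sided exact permutation p of 0.1, the smallest that 3 libraries against 3 allow, and 0.16 when adjusted over the 8 ratios. Without KO-labelled replicate 2 the difference in *Tgfbr3* over *Tgfbr2* was 0.30.

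**Figure D2:**
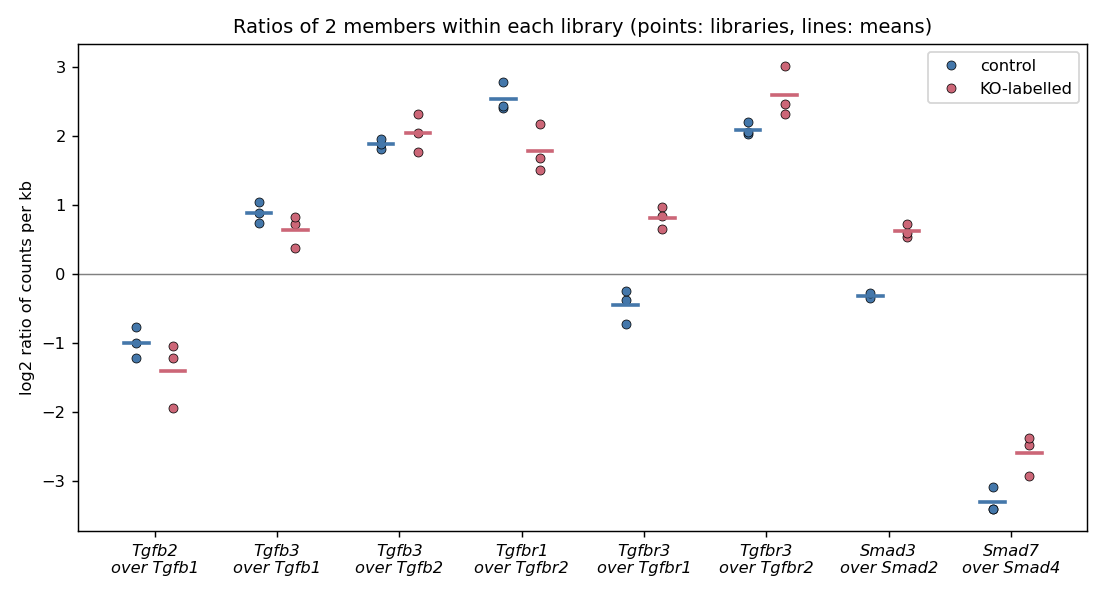
Log2 ratio of counts per kb of exon between 2 genes of the pathway (y axis) within each control and KO-labelled library (points), with lines for group means, for the 8 ratios on the x axis. The groups are apart for the 3 receptor ratios, *Smad3* over *Smad2* and *Smad7* over *Smad4*, and overlap for the 3 ligand ratios.

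*Smad2* and *Smad3*, which encode the SMADs that the type I receptor phosphorylates, moved in opposite directions under TMM scaling, whereas under the Sertoli scaling described further on both had negative values. *Smad2*, at chr18:76241580-76305731 on the plus strand, was at 105, 100.4 and 91.1 CPM in the control against 76.3, 76.6 and 75.8 CPM in the KO-labelled libraries. Every KO-labelled library was below every control library. The level fell by 0.38 ± 0.08 on the log2 scale (SE, n = 3 and 3), with an interval of -0.55 to -0.20 (adjusted p = 0.00241 from edgeR).

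*Smad3*, at chr9:63646767-63757994 on the minus strand, was at 132, 124 and 117 CPM in the control against 173, 180 and 195 CPM in the KO-labelled libraries. Every KO-labelled library was above every control library. The log2 fold change was 0.56 ± 0.08 (SE, n = 3 and 3), with an interval of 0.39 to 0.73 (adjusted p = 1.06e-04 from edgeR).

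Per kb of exon, *Smad3* took 44.1% to 45.2% of the summed *Smad2* and *Smad3* level in the control libraries and 59.1% to 62.3% in the KO-labelled libraries. The ratio of *Smad3* over *Smad2* was 0.801, 0.788 and 0.825 in the control and 1.45, 1.51 and 1.65 in the KO-labelled libraries. Per kb of exon, *Smad2* was thus the higher in each control library and *Smad3* in each KO-labelled library. In CPM, without division by exon length, *Smad3* was above *Smad2* in all 6 libraries. The exon lengths, 5542 bases for *Smad3* and 3549 for *Smad2*, are those of the whole gene and not of a transcript. Which SMAD was more abundant in the control is therefore not settled. The log2 ratio differed by 0.93 (two-sided exact permutation p = 0.1, 0.16 adjusted over 8 ratios). A ratio within a library does not depend on how the libraries are scaled, but it does not show which of the 2 genes changed.

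*Smad4*, the partner shared with BMP signals, lies at chr18:73639009-73703780 on the minus strand. It was at 209, 209 and 187 CPM in the control against 225, 205 and 199.8 CPM in the KO-labelled libraries. The groups overlapped, and the log2 fold change of 0.06 had an interval of -0.11 to 0.23 (adjusted p = 0.622 from edgeR).

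*Smad7*, the inhibitory SMAD, lies at chr18:75367529-75395935 on the plus strand. It was at 24.1, 24.0 and 26.8 CPM in the control against 36.0, 44.5 and 47.0 CPM in the KO-labelled libraries. All KO-labelled libraries lay well above the control range. The log2 fold change of 0.77 ± 0.11 (SE, n = 3 and 3), with an interval of 0.53 to 1.008, was the largest rise among the 10 genes (adjusted p = 1.11e-04 from edgeR). The ratio of *Smad7* over *Smad4* was 0.0947, 0.0942 and 0.118 in the control and 0.131, 0.179 and 0.193 in the KO-labelled libraries, a log2 difference of 0.70 (two-sided exact permutation p = 0.1, 0.16 adjusted).

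How the libraries are scaled decided most of the rises. TMM scaling takes most genes as level between groups, whereas scaling to the markers of 6 somatic cell types moved the median log2 fold change of all genes to -0.39, and scaling to the Sertoli markers alone moved it to -0.71. Under the somatic scaling 1 of the 10 genes rose (*Smad7*) and 4 fell (*Tgfbr1*, *Tgfbr2*, *Smad2* and *Smad4*), against 2.68% and 37.5% of all genes (40.2% in all). Under the Sertoli scaling none rose and 6 fell (the same 4, *Tgfb2* and *Tgfb3*), against 0.659% and 64.9% of all genes (65.5% in all). Both scalings lower all genes together, so they are no test of the falls of *Tgfbr1* and *Smad2*, which held under both. *Tgfb1*, *Tgfbr3* and *Smad3* were not called under either. Their log2 fold changes were 0.18, 0.11 and 0.20 under the somatic and -0.15, -0.20 and -0.12 under the Sertoli scaling. *Smad7* was not called under the Sertoli scaling (0.09, adjusted p = 0.554 from edgeR). *Tgfb3* turned from 0.30 to -0.06 and -0.38. Relative to the median of all genes under the same scaling, each of the 10 genes stood at nearly the same place in all 3 scalings.

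**Figure D3:**
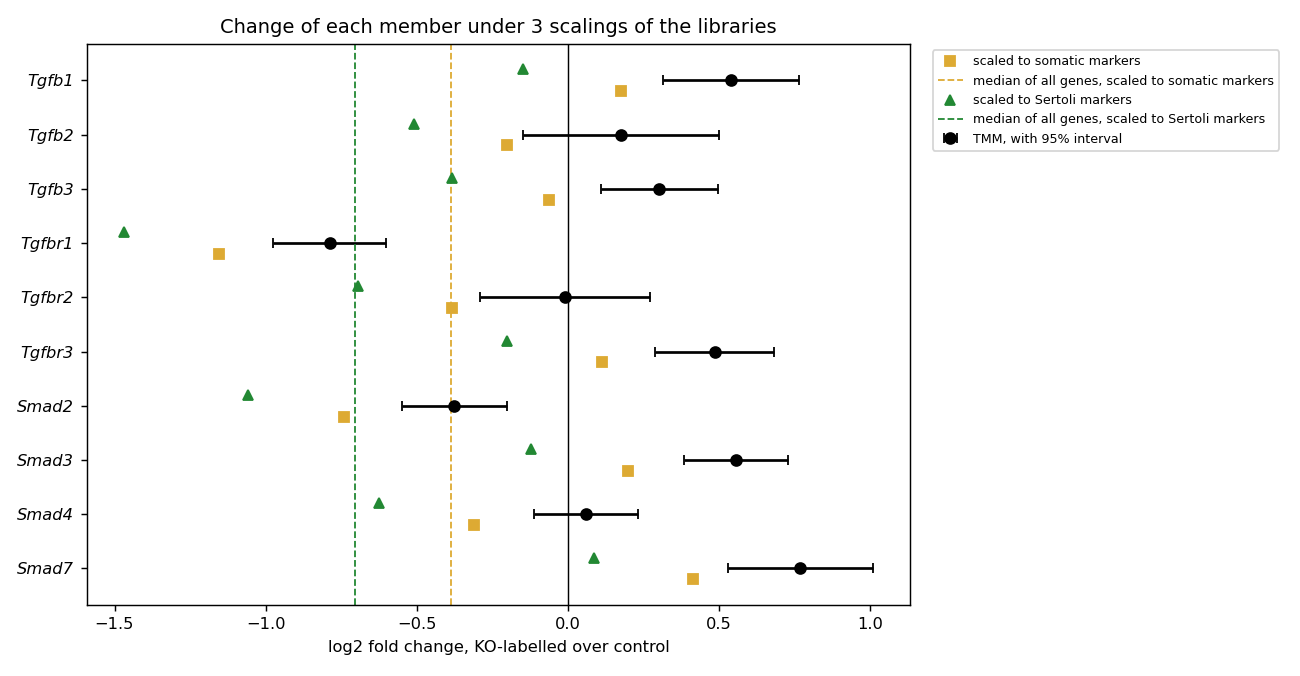
Log2 fold change of each of the 10 genes, KO-labelled over control (x axis), with TMM scaling (black points with 95% intervals), scaled to somatic markers (yellow squares) and scaled to Sertoli markers (green triangles). Dashed lines give the median of all genes under the marker scalings, -0.39 and -0.71, and all 10 genes shift to lower values by about the same amount as the lines.

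Levels between genes were compared per kb of exon (RPKM). In the control libraries *Smad4* was the highest, at 54.3 ± 3.5 RPKM (mean and SD, n = 3), followed by *Smad2* (27.9), *Tgfbr1* (25.4), *Smad3* (22.4), *Tgfbr3* (18.6), *Tgfb3* (17.1), *Tgfb1* (9.30), *Smad7* (5.52), *Tgfb2* (4.64) and *Tgfbr2* (4.38). The library ranges overlapped between *Smad2* and *Tgfbr1*, *Tgfbr1* and *Smad3*, *Tgfbr3* and *Tgfb3*, and *Tgfb2* and *Tgfbr2*, so these neighbours have no firm order. In the KO-labelled libraries *Smad4* (56.6) still led, and *Smad3* (32.95) and *Tgfbr3* (26.1) came before *Smad2* (21.5), *Tgfb3* (21.1), *Tgfbr1* (14.7), *Tgfb1* (13.5), *Smad7* (9.41), *Tgfb2* (5.24) and *Tgfbr2* (4.35). Ranges overlapped there between *Smad2* and *Tgfb3*, *Tgfbr1* and *Tgfb1*, and *Tgfb2* and *Tgfbr2*. By mean RPKM *Tgfbr1* thus ranked 3 of 10 in the control and 6 of 10 in the KO-labelled libraries. Neither rank is firm, given these overlaps and exon lengths that are those of the whole gene.

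**Figure D4:**
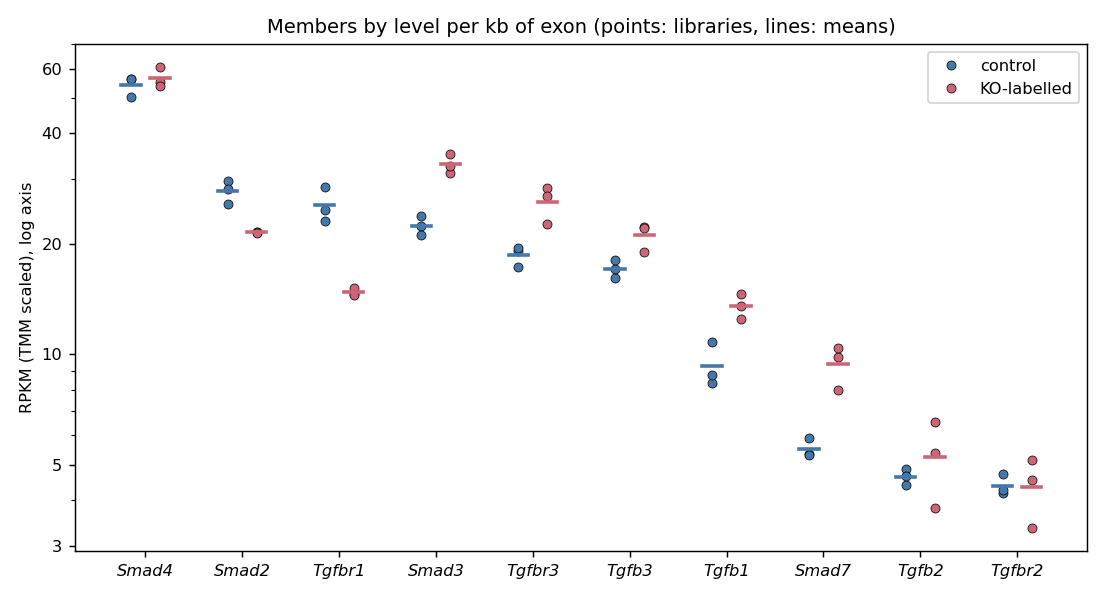
Level of the 10 genes in RPKM on a log axis (y axis), ordered by the control mean, with a point for each control and KO-labelled library and lines for group means. *Smad4* is the highest in both groups (54.3 and 56.6 RPKM), and *Tgfb2* and *Tgfbr2* are the lowest. *Smad2* and *Smad3* change places in RPKM, though in CPM *Smad3* is the higher in both groups.

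The genes whose pattern over the 6 libraries was nearest to a member were sought among 15587 protein-coding genes, by the root mean square difference of centred log2 CPM, starting from the rise and the fall with the smallest adjusted p. *Smad3* was nearest to *Ppm1l* (0.0300), *Srpk2* (0.0307) and *Tmem29* (0.0351), and *Tgfbr1* to *Hs6st2* (0.0297), *Ppa1* (0.0389) and *Nmd3* (0.0393). Within a difference of 0.1 there were 315 of the 15587 genes for *Smad3* and 110 for *Tgfbr1*, so neither pattern was particular to its gene.

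Around the core, 50 further genes of the pathway were grouped by role, and 22 rose and 8 fell (edgeR, adjusted p under 0.05), with a median log2 fold change of 0.26 against -0.02 over all genes. Of all genes 16.2% rose and 16.5% fell, so the count of falls was no larger a share than among all genes, and the same percentages are the background of the counts by role that follow. With each of the 6 libraries left out in turn, 1 to 4 genes fell and 17 to 23 rose. The same fits called 2563 to 3338 of all genes lower and 2385 to 3331 higher, out of 21008 to 21642 tested. With all 6 libraries these counts were 3347 and 3294 of 20327. The rises depended on scaling as in the core. Under the somatic scaling 8 of the 50 were higher and 11 lower, against 2.68% and 37.5% of all genes, and under the Sertoli scaling 2 were higher and 29 lower, against 0.659% and 64.9%.

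Among 12 genes of ligand latency and activation, 7 rose (*Itgb8*, *Thbs1*, *Ltbp3*, *Furin*, *Fbn1*, *Ltbp1* and *Itgav*) and none fell, against 16.2% and 16.5% of all genes, with a median of 0.33. *Ltbp3*, which tethers latent ligand to the matrix, was at 85.2, 83.5 and 94.2 CPM in the control against 154, 150 and 144 CPM in the KO-labelled libraries, without overlap (log2 fold change 0.77 ± 0.08, SE, adjusted p = 6.34e-06 from edgeR). *Itgb8*, the integrin chain that with αv releases active ligand, was at 44.8, 40.9 and 45.04 CPM against 71.9, 83.2 and 72.7 CPM, also without overlap (0.80 ± 0.09, adjusted p = 1.33e-05). Both were not called under the Sertoli scaling (0.08 and 0.12). Of the other members of the list, *Nrros*, *Ltbp4*, *Lrrc32*, *Ltbp2* and *Itgb6* were not called.

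Of 16 co-receptors and modulators, 6 rose (*Acvrl1*, *Pmepa1*, *Tgif1*, *Ski*, *Ppm1a* and *Tgif2*) and 6 fell (*Zfyve9*, *Usp15*, *Smurf1*, *Strap*, *Skil* and *Smurf2*), with a median of 0.18. *Acvrl1*, the type I receptor ALK1 of endothelial cells, was at 14.9, 19.6 and 19.97 CPM in the control against 32.3, 33.3 and 30.6 CPM in the KO-labelled libraries (0.82 ± 0.12, adjusted p = 1.26e-04 from edgeR), without overlap, a call lost under the Sertoli scaling (0.13, adjusted p = 0.361). Summed endothelial markers were at 306 to 345 CPM against 395 to 445 CPM, but most of that sum was *Cdh5*, only 2 of the 8 markers rose, and their median log2 fold change was 0.03. The part of endothelial cells in the rise of *Acvrl1* was not tested. *Pmepa1*, an inhibitor that binds SMAD2 and SMAD3, rose from 51.1 ± 3.8 to 73.0 ± 1.8 CPM (mean and SD, n = 3; log2 fold change 0.51, adjusted p = 3.41e-04 from edgeR), and was not called under either marker scaling (0.15 and -0.17).

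*Zfyve9*, which encodes SARA, the anchor that brings SMAD2 and SMAD3 to the receptor, was the strongest fall of these lists. It was at 111, 109 and 103 CPM in the control against 54.5, 58.9 and 64.6 CPM in the KO-labelled libraries. The groups were far apart, with a log2 fold change of -0.86 ± 0.09 (SE, adjusted p = 4.69e-06 from edgeR). *Zfyve9* was called in the same direction under all 16 alternative settings, of which the marker scalings lower all genes together. *Strap*, a protein that stabilises SMAD7 at the receptor, fell by 0.26 (adjusted p = 0.0219), a call lost without control replicate 1 (adjusted p = 0.0512), control replicate 2 (0.158) or KO-labelled replicate 3 (0.0911).

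Of the 4 SMADs of the BMP arm, *Smad6* rose, *Smad1* fell, and *Smad5* and *Smad9* were not called. *Smad6*, the inhibitory SMAD of BMP signals, was at 9.50, 9.58 and 10.04 CPM in the control, whereas the KO-labelled libraries were at 33.6, 30.1 and 29.4 CPM. This was a rise of 1.68 ± 0.11 on the log2 scale (SE, adjusted p = 1.03e-07 from edgeR), called under all 16 alternatives. *Smad1*, a SMAD that BMP receptors phosphorylate, fell by 0.25 (adjusted p = 0.0391), and this call was lost when any one of the 6 libraries was left out (adjusted p = 0.0532 to 0.162).

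Of 18 known target genes of the pathway, 8 rose (*Junb*, *Snai2*, *Snai1*, *Tgfbi*, *Ccn1*, *Tsc22d1*, *Bhlhe40* and *Vim*), 1 fell (*Klf10*) and 9 were not called, with a median of 0.26. *Tsc22d1*, a gene first found by its induction by TGF-β, was at 371, 382 and 397 CPM in the control against 545, 571 and 564 CPM in the KO-labelled libraries, without overlap (0.55 ± 0.07, SE, adjusted p = 6.18e-05 from edgeR). *Tgfbi*, a matrix protein gene named for its induction, was at 31.3, 27.5 and 32.96 CPM against 53.1, 47.3 and 45.3 CPM (0.67 ± 0.10, adjusted p = 1.61e-04). Neither was called under a marker scaling, with 0.18 and 0.30 under the somatic and -0.14 and -0.02 under the Sertoli scaling.

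*Klf10*, an early response gene of TGF-β, fell by 0.29 (adjusted p = 0.0316 from edgeR), a call lost without any one of the control libraries or without KO-labelled replicate 1 (adjusted p = 0.0537 to 0.14). Another 3 targets often used as reporters of the signal, picked for mention after their values were seen, were not called: *Ccn2* (0.00), *Fn1* (0.08) and *Col1a1* (0.20). *Col1a1* stood at 1574, 2374 and 1590 CPM in the control against 2956, 1613 and 1806 CPM in the KO-labelled libraries, and the groups overlapped.

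**Figure D5:**
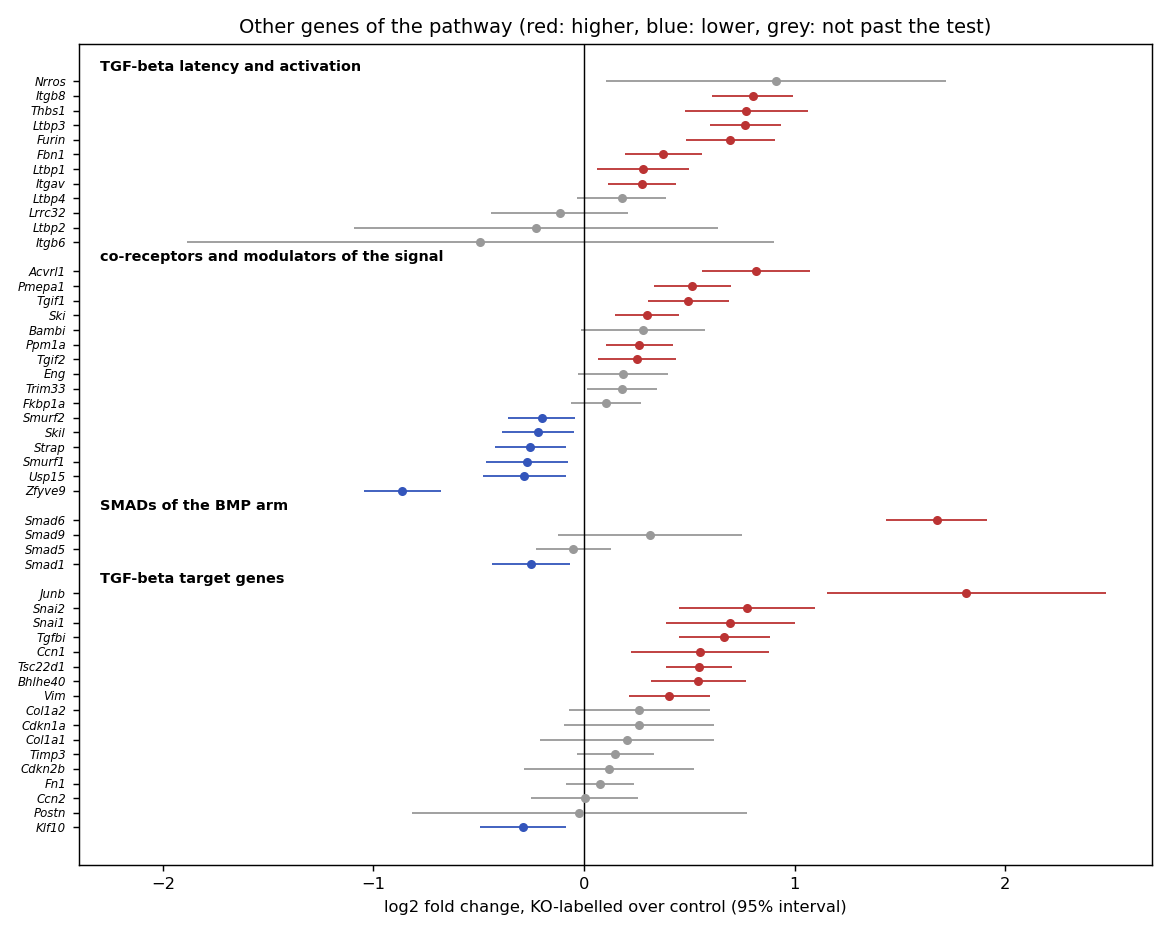
Log2 fold change with 95% interval (x axis) of further genes of the pathway, grouped by list, with red for genes that rose, blue for genes that fell and grey for genes not called. The 7 called genes of latency and activation all lie above 0, the modulators hold 6 on each side, and *Smad6* (1.68) and *Junb* (1.82) lie furthest to the right. Values are with TMM scaling, and under the Sertoli scaling 2 of the 50 rose and 29 fell, against 0.659% and 64.9% of all genes.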

How the data were processed

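Whole testes of mice at postnatal day 12 were profiled by bulk RNA-seq, with 3 control and 3 KO-labelled libraries grouped by the genotype in the labels. According to the methods and labels, the authors primed cDNA with random and poly(T) primers, depleted unwanted transcripts and sequenced single-end reads. Trimming was by cutadapt, alignment to GRCm38.p5 by HISAT2 and counting by featureCounts 1.6.4 (strand setting 1) over GENCODE M18. The deposited values are raw counts per gene with each gene's exon length, and 0 columns of library values were left unused. Totals were 33325483 to 44956193 counts per library, which limits precision most for genes of few counts.

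Symbols were found for 54165 of 54232 genes. Counts were filtered with filterByExpr (20327 genes kept), scaled by TMM and tested with edgeR 4.0.16 (quasi-likelihood, Benjamini-Hochberg adjustment over all genes tested, adjusted p under 0.05) in R 4.3.3, a test chosen in place of the authors' DESeq2. CPM and RPKM (CPM per kb of exon) use the TMM-scaled totals. Ratios of 2 genes were compared by two-sided exact permutation tests over 20 arrangements. The scripts were tested on simulated counts. Alternatives were DESeq2 1.42.0, limma 3.58.1 (voom), RLE and upper-quartile factors, scaling to somatic or to Sertoli markers, other filters, protein-coding genes only, a replicate block and leaving out each library.

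The 10 genes, the pathway lists and the marker lists were chosen with earlier results of these data known. Named genes were the 10, *Dis3l2*, *Dis3*, from each pathway list up to 2 rises and 2 falls by smallest adjusted p, and the 3 nearest patterns of the top gene in each direction. Other names complete a list or are marked as picked afterwards, and a gene of the target list, kept in the counts, is not reported here by name. Libraries of a group differed by more than counting noise (chi-square per degree of freedom 10 to 23.5), so none was counted as a copy. Promoter windows came from a table of RefSeq starts on GRCm38.p6, and those of 5 of the 10 genes were used here.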

Additional observations from a re-analysis of the deposited data

How the results depend on the processing

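*Tgfbr1*, *Smad2*, *Zfyve9* and *Smad6* kept their direction and call under all 16 alternatives. Under the somatic marker scaling 1 of the 10 genes rose and 4 fell, and 8 of the 50 further pathway genes rose and 11 fell. Of all genes, 2.68% rose and 37.5% fell under it. Under the Sertoli scaling the counts were 0 and 6, and 2 and 29, against 0.659% and 64.9% of all genes. Signs turned under the somatic scaling for *Tgfb2* (-0.20), *Tgfb3* (-0.064), *Smad4* (-0.31) and *Dis3l2* (-0.15), and under the Sertoli scaling for *Tgfb1* (-0.15), *Tgfb2* (-0.51), *Tgfb3* (-0.38), *Tgfbr3* (-0.20), *Smad3* (-0.12), *Smad4* (-0.62), *Dis3l2* (-0.46), *Pmepa1* (-0.17), *Tsc22d1* (-0.14) and *Tgfbi* (-0.020). These scalings lower all genes together by construction, so a fall that kept its call under them was not put to a test. *Tgfbr2*, at -0.01 in the main test, turned to 0.0055 with DESeq2, 0.0053 with RLE factors and 0.016 with no filter on low counts. Of the 50 pathway genes 5 fell with RLE factors and 2 with no filter, against 8 in the main test. Over all genes, 3239 of 20327 fell with RLE factors and 3374 of 42383 with no filter, against 3347 of 20327. The cause of the lower pathway counts was not tested.

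With each library left out in turn, 4 to 6 of the 10 genes rose and 2 fell, and 17 to 23 of the 50 pathway genes rose and 1 to 4 fell. Over all genes these fits called 2385 to 3331 higher and 2563 to 3338 lower, out of 21008 to 21642 tested. *Tgfbr2* ranged from -0.14 to 0.16 (0.05 without control replicate 1, 0.16 without KO-labelled replicate 2) and *Tgfb2* from -0.0063 (without KO-labelled replicate 1) to 0.37. These fits have fewer samples.

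Deviations of same-numbered libraries from their group means correlated at -0.0014, -0.0126 and 0.0139, so no large effect shared by replicate number was seen. Any other pairing, such as by litter, was not tested. With the replicate block 5 of the 10 genes rose and 2 fell, and 21 and 6 of the pathway genes, against 3271 and 3290 of all 20327 genes tested. All 8 ratios kept their sign in the 7 alternatives run for them, but the 3 ligand ratios and *Tgfbr3* over *Tgfbr2* shrank by over 1.5 times without KO-labelled replicate 2. Among the 10 genes the 95% intervals were widest for *Tgfb2* (-0.15 to 0.50) and *Tgfbr2* (-0.29 to 0.27), 2 of the 3 with the fewest counts. *Smad7*, the other of these 3, had a narrower interval (0.53 to 1.008). Changes within the intervals of *Tgfb2* and *Tgfbr2* are not excluded.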
